A study of Mus musculus with 2 samples.

Results

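Wnt2, Wnt5a, Wnt5b, Wnt6, Wnt7b, Wnt10a, Wnt10b and Wnt11, the 8 Wnt ligand genes other than Wnt4 chosen by symbol from the 32285 genes of the deposited tables, were followed through the cell classes of the mouse mammary gland. Single cells were taken from the 4th mammary gland of virgin females aged 6 to 8 weeks, either with a deletion of Gpm6a (KO) or wild type (WT). The labels give C57BL/6 as the genotype of both. The glands came from 3 littermates per genotype; after collagenase digestion, cells that excluded the dye DAPI were sorted and made into 1 droplet library (10x Genomics) for KO and 1 for WT. The labels give neither the deleted part of Gpm6a nor the cells in which it was deleted, and do not say how cells of the 3 animals were combined. A difference between the KO and the WT library therefore has no replicate check, and no test of it was made.

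Wnt ligands are secreted, lipid-modified glycoproteins that act on nearby cells. They bind Frizzled receptors with the co-receptors Lrp5 and Lrp6, which leads to stabilised beta-catenin, or act through Ror and Ryk receptors without it. In the mammary gland, Wnt signals are known for their part in forming the gland in the embryo, in branching of the ducts and in the upkeep of basal stem cells.

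Values are counts of unique molecular identifiers (UMIs), 1 per captured RNA molecule. After filtering, 10472 KO cells with a median of 9521 UMIs and 10523 WT cells with a median of 11086 UMIs were analysed, and 20 barcode sequences occurred among the analysed cells of both libraries. Gpm6a itself had 29 UMIs in KO cells and 284 in WT cells. A small cluster with Schwann and mesothelial markers had 1 of these in KO and 193 in WT, while vascular endothelial cells had 22 in KO and 20 in WT. As the deleted part is not given, these 3′ reads do not check the genotype. The labels describe the sorted cells as primary mammary epithelial cells, but 4579 KO and 3790 WT cells carried fibroblast markers, and immune and vascular classes were present too. Cells were clustered without using the 8 ligands, and clusters were named by marker genes, so that each class name below stands for cells with that class's markers. Named classes held 96.6% of KO and 93.0% of WT cells, and the 17 of them with at least 50 cells in each library were compared. Keratinocyte-like cells numbered 0 in KO and 298 in WT, and Rspo3 fibroblast-like cells 15 in KO and 658 in WT.

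The level of a gene in a class is its UMIs over all UMIs of that class, scaled to counts per 1e+06 (CPM), with an exact 95% Poisson interval. Shares of cells with a UMI carry exact Clopper-Pearson intervals. Both cover counting error only. Levels were compared between classes within a gene, since capture of 3′ ends differs between genes. T and natural killer cells served as the background of free RNA: in their 858 KO and 363 WT cells (medians of 4855 UMIs in KO and 5496 UMIs in WT) the share with a UMI was between 0% and 1.63% in KO and between 0% and 2.20% in WT across the 8 genes. The shares of 0% were those of Wnt10b in KO and Wnt2 in WT. Their exact intervals reach 0.429% in KO and 1.01% in WT. A simpler limit of 3 cells over all these cells gives 0.350% in KO and 0.826% in WT.

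Promoters were looked at for ligands with the same or with unlike sources. RefSeq's table (build GRCm38.p6) held a promoter window, from 250 bases before to 50 bases after the gene start, for 5 of the 8 genes, with 8 windows in all. Wnt5a, Wnt7b and Wnt10a had no entry. The windows of Wnt2 and Wnt10b are shown because both genes had their highest level in the same fibroblasts. The first window of Wnt11 is shown because its highest levels lay in cells of unlike origin, basal epithelium and fibroblasts. Capitals mark matches, on either strand, to the TATA box TATAAA, the CCAAT box CCAAT, the GC box GGGCGG and the Tcf/Lef core TTCAAAG.
Wnt2: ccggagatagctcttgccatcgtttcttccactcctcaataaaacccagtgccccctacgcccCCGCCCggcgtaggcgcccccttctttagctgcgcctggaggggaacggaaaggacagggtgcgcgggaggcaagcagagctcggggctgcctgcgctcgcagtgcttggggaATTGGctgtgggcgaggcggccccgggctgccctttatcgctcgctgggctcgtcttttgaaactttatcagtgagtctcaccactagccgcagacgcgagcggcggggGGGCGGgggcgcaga
Wnt10b: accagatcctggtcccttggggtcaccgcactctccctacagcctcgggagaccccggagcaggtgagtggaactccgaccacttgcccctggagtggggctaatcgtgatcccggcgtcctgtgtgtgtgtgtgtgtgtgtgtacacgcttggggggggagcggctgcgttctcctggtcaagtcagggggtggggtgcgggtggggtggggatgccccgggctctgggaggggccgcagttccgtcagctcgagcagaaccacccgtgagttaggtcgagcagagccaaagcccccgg
Wnt11: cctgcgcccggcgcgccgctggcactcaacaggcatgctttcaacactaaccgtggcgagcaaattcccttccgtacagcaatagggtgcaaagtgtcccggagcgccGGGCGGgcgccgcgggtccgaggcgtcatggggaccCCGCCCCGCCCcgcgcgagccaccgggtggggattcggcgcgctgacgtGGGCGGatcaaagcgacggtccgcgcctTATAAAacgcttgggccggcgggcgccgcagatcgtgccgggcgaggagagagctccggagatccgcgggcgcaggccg
The Wnt2 window is chr6:18030396-18030695 on the minus strand, that of Wnt10b chr15:98778101-98778400 on the minus strand, and the Wnt11 window shown chr7:98834862-98835161 on the plus strand. Counted from the start, Wnt2 held a CCAAT box on the minus strand at -74 and GC boxes at -187 and 36. The Wnt11 window shown held a TATA box at -29 and 4 GC boxes, of which those at -106 and -101 overlap by a base. The other Wnt11 window, chr7:98838595-98838894 on the plus strand, held no TATA box and a single GC box at 31. None of the 4 motifs occurred in the Wnt10b window. Of all 32851 promoter windows, 13.6% held TATAAA, 37.4% CCAAT, 35.7% GGGCGG and 5.14% TTCAAAG. The windows were 65.7% G and C for Wnt2, 66.3% for Wnt10b, and 71.3% for the Wnt11 window shown and 59.3% for its other window. The median over all windows was 52.7%. These matches describe letters in the windows and say nothing about binding.

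Each ligand had a class of its own or shared it with few others. Wnt2 and Wnt10b were highest in fibroblasts with Pi16 and Dpp4, Wnt5a and Wnt7b in hormone-sensing luminal cells, Wnt5b in luminal progenitor cells, Wnt6 in basal-like cells with Il17b, and Wnt10a in basal cells. Wnt11 was highest in basal cells of the KO library and in fibroblasts with Col13a1 and Mmp11 of the WT library. The leading class was the same in both libraries for 7 of the 8 genes.

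**Figure D1:**
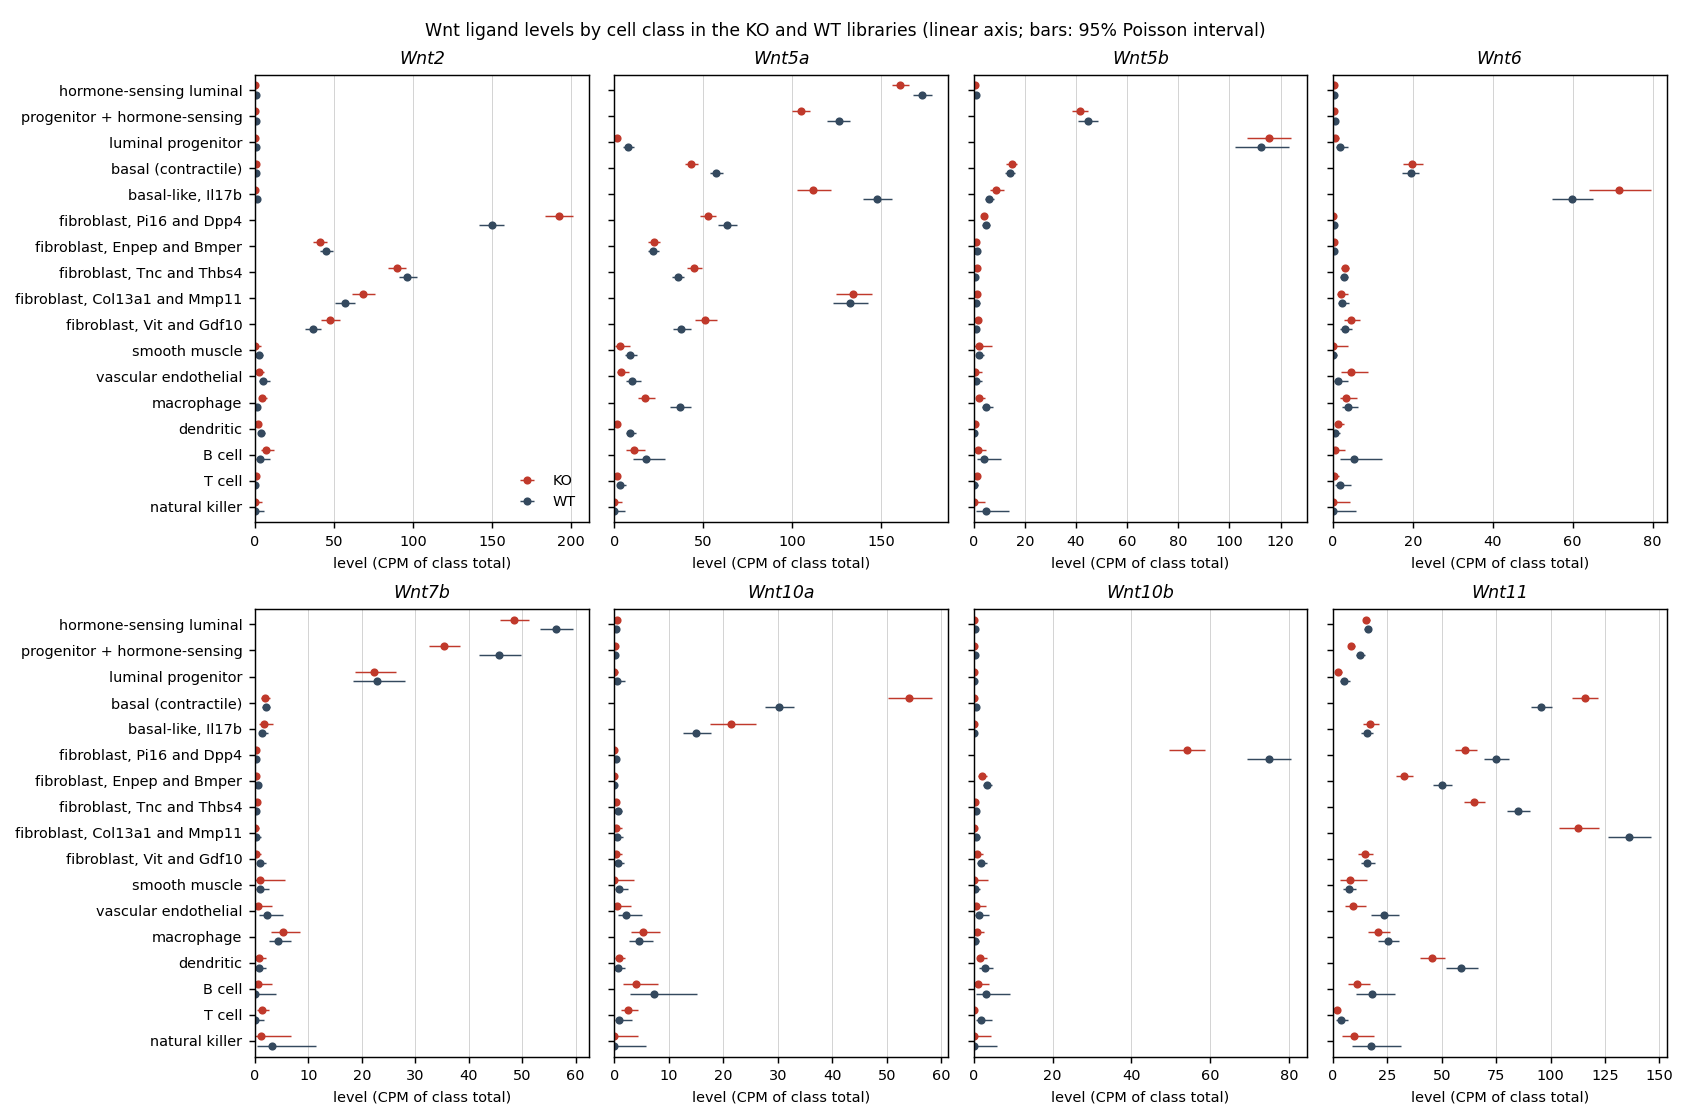
Level of each of the 8 Wnt ligands (CPM of the class total, linear axes that differ between panels) in the 17 named cell classes, with KO (red) above WT (blue) and exact 95% Poisson intervals as bars. Wnt10b stands out in 1 class, whereas Wnt5a and Wnt11 are spread over epithelial and fibroblast classes.

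Among the stromal ligands, Wnt2, which can signal through beta-catenin and is known from lung development, was a fibroblast gene throughout. Its gene lies at chr6:17988940-18030585 on the minus strand and had 3888 UMIs in KO and 3721 UMIs in WT cells. In Pi16 fibroblasts the level was 192.5 CPM (183.9 to 201.4) in KO and 149.9 CPM (142.1 to 158.0) in WT. The other fibroblast subsets followed at a distance. In the subset led by Tnc and Thbs4, whose Enpep and Col13a1 marker levels are intermediate, Wnt2 stood at 90.0 CPM in KO and 96.5 CPM in WT. Fibroblasts with Col13a1 had 68.3 CPM in KO and 56.8 CPM in WT, those with Vit and Gdf10 47.2 CPM in KO and 36.4 CPM in WT, and those with Enpep and Bmper 41.0 CPM in KO and 45.0 CPM in WT. The Vit and Enpep subsets change places between the libraries, but their intervals overlap in each. No other class of the 17 exceeded 6.68 CPM in KO or 5.29 CPM in WT.

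In Pi16 fibroblasts, a Wnt2 UMI was found in 68.7% of KO cells, whose median depth was 8614 UMIs, and in 71.1% of WT cells, with a median of 12111 UMIs. With each cell thinned to 2000 UMIs, the shares were 31.8% in KO and 27.7% in WT. The signal was spread over many cells: the 5 cells with the most Wnt2 held 2.65% of the class's Wnt2 UMIs in KO and 3.69% in WT.

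Wnt10b, a beta-catenin ligand known for holding back fat cell formation and for its early expression in the mammary line of the embryo, was the ligand most restricted to 1 class. It lies at chr15:98770712-98778150 on the minus strand. Pi16 fibroblasts held 90.9% of its 582 UMIs in KO and 85.4% of its 808 UMIs in WT. The level there was 54.0 CPM (49.5 to 58.8) in KO and 74.8 CPM (69.3 to 80.6) in WT. The next class, Enpep fibroblasts, was at 2.02 CPM in KO and 3.39 CPM in WT, so that the Pi16 subset was 26.7-fold higher in KO and 22.1-fold higher in WT. Dendritic cells had 1.74 CPM in KO and 2.78 CPM in WT, and B cells 1.11 CPM in KO and 3.15 CPM in WT, all with intervals that overlap that of Enpep fibroblasts.

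A Wnt10b UMI was found in 29.97% of KO and 38.3% of WT Pi16 fibroblasts, and more often in cells that also had Wnt2. In cells thinned to 8000 UMIs, 30.3% of the KO cells with Wnt2 also had Wnt10b, and 15.7% of those without it. In WT the shares were 36.8% with Wnt2 and 24.0% without. This describes 649 KO and 625 WT cells deep enough to be thinned, and since the cells of a genotype share a library, it has no test.

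Wnt11, a ligand known for beta-catenin-independent signalling and for branching of the kidney, was measured in more classes than Wnt2 or Wnt10b. It lies at chr7:98835112-98855195 on the plus strand. Fibroblasts with Col13a1 had 112.7 CPM (103.8 to 122.2) in KO and 135.9 CPM (126.3 to 146.0) in WT. Basal cells had 115.8 CPM (110.0 to 121.9) in KO and 95.6 CPM (91.0 to 100.4) in WT. The intervals of these classes overlap in KO and do not overlap in WT, where the fibroblasts are the higher class. Below them came Tnc fibroblasts with 64.8 CPM in KO and 85.0 CPM in WT, and Pi16 fibroblasts with 60.9 CPM in KO and 75.0 CPM in WT.

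Among immune classes Wnt11 was highest in dendritic cells, at 45.5 CPM (39.9 to 51.7) in KO and 58.8 CPM (51.8 to 66.5) in WT. A Wnt11 UMI was found in 28.5% of KO and 29.5% of WT dendritic cells. Cells with a UMI of Cd209a, a marker of one kind of conventional dendritic cell, had 92.6 CPM in KO (77 cells) and 109 CPM in WT (53 cells). Those with Xcr1 or Clec9a had 44.7 CPM in KO and 56.0 CPM in WT, and those with Ccr7, a receptor of migrating dendritic cells, 49.0 CPM in KO and 62.7 CPM in WT. A cell can belong to more than 1 of these groups. The Cd209a cells were the highest in both libraries, and their intervals (75.4 to 112 CPM in KO, 88.5 to 133 CPM in WT) lie above those of the other groups. The dendritic values stood beside summed levels of the 7 fibroblast markers of 1217 CPM in KO and 4823 CPM in WT dendritic cells. Wnt2, at 41.0 CPM or more in KO and 36.4 CPM or more in WT in each fibroblast subset, stood at 1.54 CPM in KO and 3.93 CPM in WT dendritic cells.

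**Figure D2:**
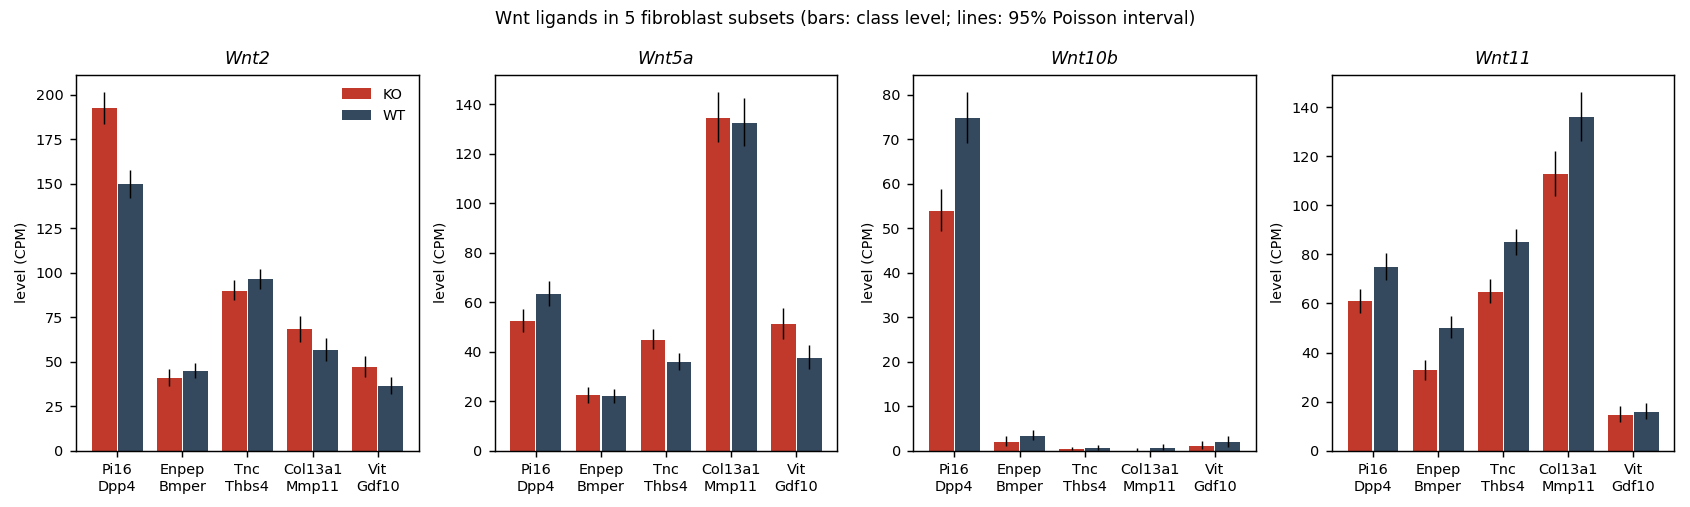
Levels of Wnt2, Wnt5a, Wnt10b and Wnt11 (CPM, axes from 0) in 5 fibroblast subsets named by their markers, with KO (red) left of WT (blue) and exact 95% Poisson intervals as lines. Wnt2 and Wnt10b are highest in Pi16 fibroblasts, Wnt5a and Wnt11 in Col13a1 fibroblasts.

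Of the luminal ligands, Wnt5a, the best known beta-catenin-independent Wnt and a ligand of Ror2, had the most UMIs of the 8 genes, 9541 in KO and 11441 in WT. It lies at chr14:28504750-28527448 on the plus strand. Hormone-sensing luminal cells, which carry the receptors for oestrogen, progesterone and prolactin, had 160.9 CPM (156.0 to 166.0) in KO and 173.3 CPM (168.0 to 178.8) in WT. Col13a1 fibroblasts had 134.5 CPM (124.7 to 144.8) in KO and 132.6 CPM (123.1 to 142.6) in WT. The basal-like cells with Il17b had 111.9 CPM in KO and 147.9 CPM in WT, which put them below Col13a1 fibroblasts in KO and level with them within the intervals in WT. Basal cells had 43.3 CPM in KO and 57.4 CPM in WT.

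Luminal progenitor cells, the neighbours of hormone-sensing cells in the same layer, had very little Wnt5a, with 1.67 CPM (0.802 to 3.08) in KO and 7.52 CPM (5.04 to 10.8) in WT. A Wnt5a UMI was found in 1.83% of KO and 6.37% of WT luminal progenitor cells, against 79.4% of KO and 77.6% of WT hormone-sensing cells. Thinned to 2000 UMIs, the shares in hormone-sensing cells were 26.4% in KO and 26.5% in WT. A cluster with both sets of luminal markers had 104.9 CPM in KO and 126.1 CPM in WT. Its cells had a median of 31583 UMIs, against 11619 in luminal progenitor and 18042 in hormone-sensing cells, and the part of doublets in it was not tested. Dividing cells, an unnamed cluster led by Iqgap3, Hmmr and Ube2c, had 134.0 CPM in KO and 175.8 CPM in WT. The closest class of this cluster was hormone-sensing luminal, with 3 of 7 markers, under the 50% of markers that a name needed.

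Wnt5b, a close relative of Wnt5a, showed the opposite luminal pattern. It lies at chr6:119432531-119544347 on the minus strand. Luminal progenitor cells had 115.3 CPM (106.8 to 124.2) in KO and 112.3 CPM (102.0 to 123.4) in WT, and hormone-sensing cells 0.644 CPM in KO and 1.09 CPM in WT. The cluster with both marker sets lay between them, at 41.5 CPM in KO and 44.7 CPM in WT. Basal cells had 14.8 CPM in KO and 14.1 CPM in WT. A Wnt5b UMI was found in 63.5% of KO and 60.3% of WT luminal progenitor cells, in 1.12% of KO and 1.63% of WT hormone-sensing cells, and in 0.699% of KO and 0.275% of WT T and natural killer cells, whose depth is lower.

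In the cluster with both marker sets, the share of cells with Wnt5b differed little between cells with and without Wnt5a. Thinned to 8000 UMIs, 23.7% of the KO cells with Wnt5a had Wnt5b, and 24.5% of those without it. In WT the shares were 25.5% with Wnt5a and 27.3% without.

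Wnt7b, known for directing blood vessel growth in the brain and for branching of the lung, was found in all luminal classes. It lies at chr15:85535437-85582473 on the minus strand. The level was 48.5 CPM (45.8 to 51.3) in KO and 56.4 CPM (53.3 to 59.5) in WT hormone-sensing cells. It was 22.3 CPM in KO and 22.8 CPM in WT luminal progenitor cells, and 1.80 CPM in KO and 1.96 CPM in WT basal cells. Both luminal classes had Wnt7b, while Wnt5a was low in luminal progenitor cells and Wnt5b in hormone-sensing cells. A Wnt7b UMI was found in 53.7% of KO and 58.6% of WT hormone-sensing cells and in 21.2% of KO and 24.0% of WT luminal progenitor cells.

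Among hormone-sensing cells thinned to 8000 UMIs, Wnt7b was found in 30.2% of KO cells with Wnt5a and 28.7% of those without it. In WT the shares were 34.8% with Wnt5a and 37.6% without. The direction of this small difference was not the same in the libraries.

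**Figure D3:**
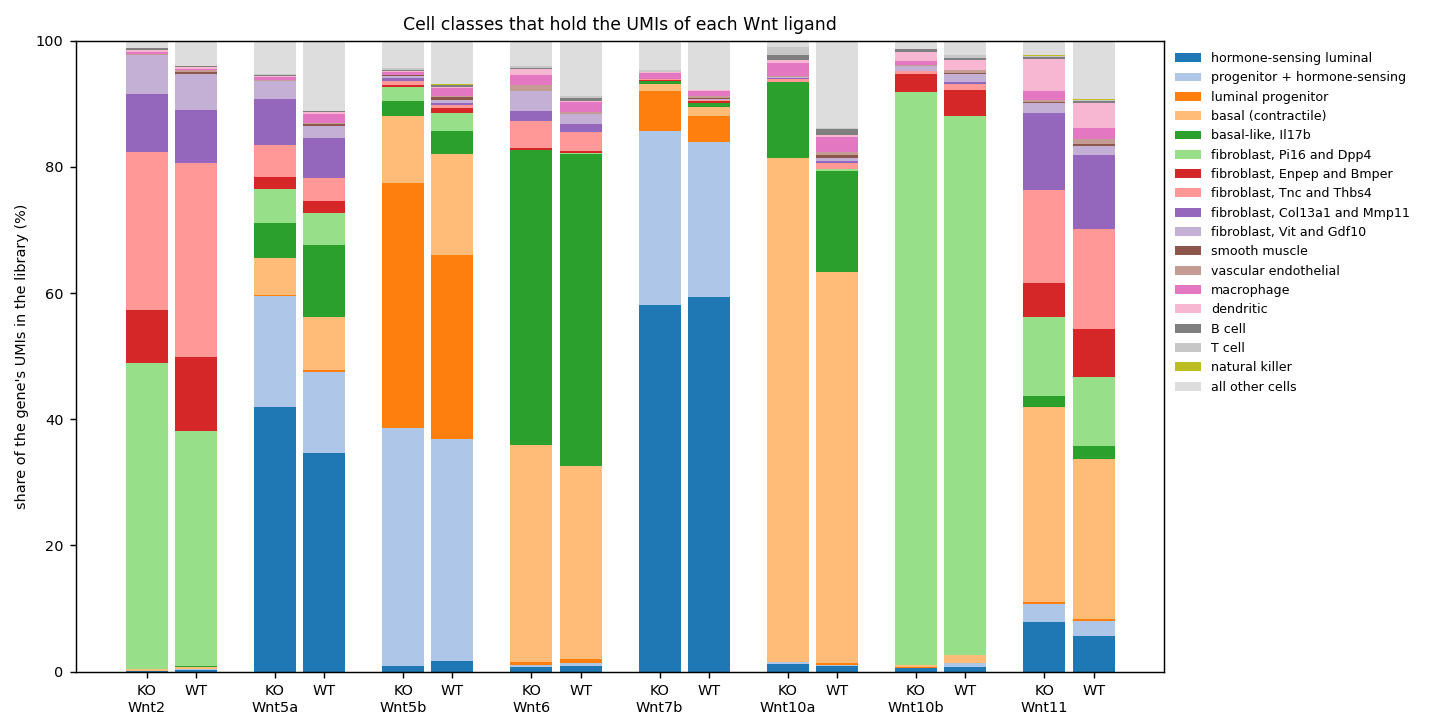
Share of each ligand's UMIs (in percent of its UMIs in the library) that lay in each cell class, with the KO bar left of the WT bar for each gene. The Pi16 fibroblast segment takes most of Wnt10b, basal cells most of Wnt10a, and luminal classes most of Wnt5b and Wnt7b.

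The basal ligands Wnt6 and Wnt10a are neighbours. Wnt6 lies at chr1:74771892-74785322 and Wnt10a at chr1:74791516-74804179, both on the plus strand and 6193 bases apart. Wnt6 is known from kidney tubule formation, and Wnt10a from teeth and hair, where changes of the human gene cause missing teeth. Among the 17 classes, Wnt6 was highest in the Il17b basal-like cells and Wnt10a in the basal cells. The place of these cells in the tissue was not measured. Basal-like cells with Il17b, Col9a1 and Wif1 had a Wnt6 level of 71.6 CPM (64.2 to 79.5) in KO and 59.8 CPM (54.8 to 65.2) in WT. Basal cells, which carry the contractile genes Cnn1 and Oxtr, had 19.8 CPM of Wnt6 in KO and 19.4 CPM in WT. A Wnt6 UMI was found in 67.0% of KO and 60.9% of WT Il17b basal-like cells.

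For Wnt10a the order was reversed. Basal cells had 54.1 CPM (50.2 to 58.3) in KO and 30.2 CPM (27.6 to 32.9) in WT, and the Il17b basal-like cells 21.4 CPM (17.5 to 26.0) in KO and 15.0 CPM (12.5 to 17.8) in WT. Over the 34 values of class and library, log2(CPM + 1) of Wnt6 and Wnt10a had a Pearson correlation of 0.82. On this log scale it was the highest of any of the 8 genes with another. The values share libraries, and most lie near 0. Within the Il17b cells, a smaller dividing cluster had 71.0 CPM of Wnt6 in KO and 66.4 CPM in WT, and the larger one 71.8 CPM in KO and 55.8 CPM in WT, and the intervals of the clusters overlap in each library.

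Wnt6 was also found in the small cluster with Schwann and mesothelial markers, with 23 UMIs (137 CPM, 86.9 to 206) in 33 KO cells and 21 UMIs (40.9 CPM, 25.3 to 62.6) in 64 WT cells. Of these cells, the 21 WT cells with at least 3 UMIs of the mesothelial genes Upk3b, Msln and Lrrn4 had 0 Wnt6 UMIs. No KO cell of the cluster had as many, so that the levels compare unlike mixes of cells. A few cells carried the value, as 5 cells held 87.0% of the cluster's Wnt6 UMIs in KO and 81.0% in WT. Keratinocyte-like cells, found in WT only, had 11.8 CPM of Wnt10a and 7.59 CPM of Wnt6, and held 9.88% of all WT Wnt10a UMIs.

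Genes with the most similar profile were sought among 14527 genes, by Pearson correlation of log2(CPM + 1) over the 34 values. They were Abca6, an ABC transporter, for Wnt2 (r = 0.98), Steap2, a metalloreductase, for Wnt5a (0.92), Crabp2, which binds retinoic acid, for Wnt5b (0.94), and Dlk2, a relative of the Notch ligands, for Wnt6 (0.92). For Wnt7b it was Myo5c, a class V myosin (0.97), followed closely by Krt7, a keratin of simple epithelia. For Wnt10a it was Irx4, a homeobox factor (0.94), followed by Cdh3, the P-cadherin of basal cells. Dhrs9, a retinol dehydrogenase, was most like Wnt10b (0.93), and Arfgap3, an activator of Arf GTPases, most like Wnt11 (0.80). Cells and depth are common to all these values, and the correlations are descriptions.

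Between the genotypes, none of the 8 ligands differed by 2-fold or more in its leading class. Ratios are given as log2(KO CPM + 1) minus log2(WT CPM + 1), and a pair of gene and class was measured with at least 20 UMIs over both libraries. Of all 15248 genes measured in their own leading class, 3.53% were past 2-fold. Over the 17 classes, 62 of 136 pairs of ligand and class were measured, and 7 of them (11.3%) were past 2-fold, against 3.89% of 188329 pairs over all genes. Of the 7, 1 was higher in KO (0.889% of all pairs were) and 6 were lower (3.0% of all pairs).

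The widest ratio in a leading class was that of Wnt10a in basal cells, with a log2 ratio of 0.82 (0.67 to 1.01). The interval, here and for the ratios below, is the exact 95% counting interval of the ratio with nothing added. A Wnt10a UMI was found in 43.6% of 786 KO basal cells and 26.0% of 1168 WT basal cells. Median depths were 12983 UMIs in KO and 10882 UMIs in WT basal cells. Thinned to 2000 UMIs, the shares were 9.96% in KO and 5.49% in WT. Il17b basal-like cells had a log2 ratio of 0.49 (0.13 to 0.90), which turned to -0.33 when cells were thinned. In basal cells the ratio was above 0 in all 17 alternatives and past 2-fold in 3 of them, at 1.28 with a finer clustering, at 1.02 after thinning and at 1.76 with all deposited barcodes.

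Wnt10b and Wnt2 differed in opposite directions in the same Pi16 fibroblasts. Wnt10b had a log2 ratio of -0.46 (-0.64 to -0.30) and Wnt2 one of 0.36 (0.26 to 0.46). The Wnt10b direction turned to 0.35 when each library was clustered alone, and Wnt2 stood at 0.68 in that setting. Pi16 fibroblasts were 10.7% of KO and 7.04% of WT cells.

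Wnt11 was lower in KO in all 5 fibroblast subsets, with log2 ratios between -0.09 and -0.60, and higher in basal cells at 0.27 (0.17 to 0.38), a value that reached 1.26 in 1 of 17 alternatives. Pooled over the 5 subsets it had 57.1 CPM (54.7 to 59.5) in KO and 71.6 CPM (69.1 to 74.2) in WT. The lower level held in every alternative that gave a value for the Col13a1, Enpep and Tnc subsets. It did not hold for Pi16 fibroblasts with each library clustered alone, at 0.08, or for Vit fibroblasts in 3 of 17 alternatives. In KO fibroblasts 29.5% of cells had a Wnt11 UMI, and in WT 40.2%. These shares are without thinning, and median depth was lower in KO in all 5 subsets. It was 8614 UMIs in KO and 12111 UMIs in WT Pi16 fibroblasts, and 9171 UMIs in KO and 11531.5 UMIs in WT Col13a1 fibroblasts.

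Wnt5a was lower in KO in each epithelial class where its level was above 40 CPM. The log2 ratio was -0.11 in hormone-sensing cells, -0.26 in the cluster with both luminal marker sets, and -0.40 both in basal and in Il17b basal-like cells, below 0 under every alternative. Scaling by TMM factors, which shifts the ratios by between -0.03 and 0.16 depending on the class, left -0.03 in hormone-sensing cells. In fibroblasts Wnt5a was higher in KO in the Vit subset (0.44, 0.18 to 0.71) and the Tnc subset (0.32, 0.14 to 0.52; -0.16 with each library clustered alone), and lower in Pi16 fibroblasts (-0.27). Wnt7b was at -0.21 in hormone-sensing cells, Wnt6 at 0.25 in Il17b basal-like cells and Wnt5b at 0.04 in luminal progenitor cells.

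**Figure D4:**
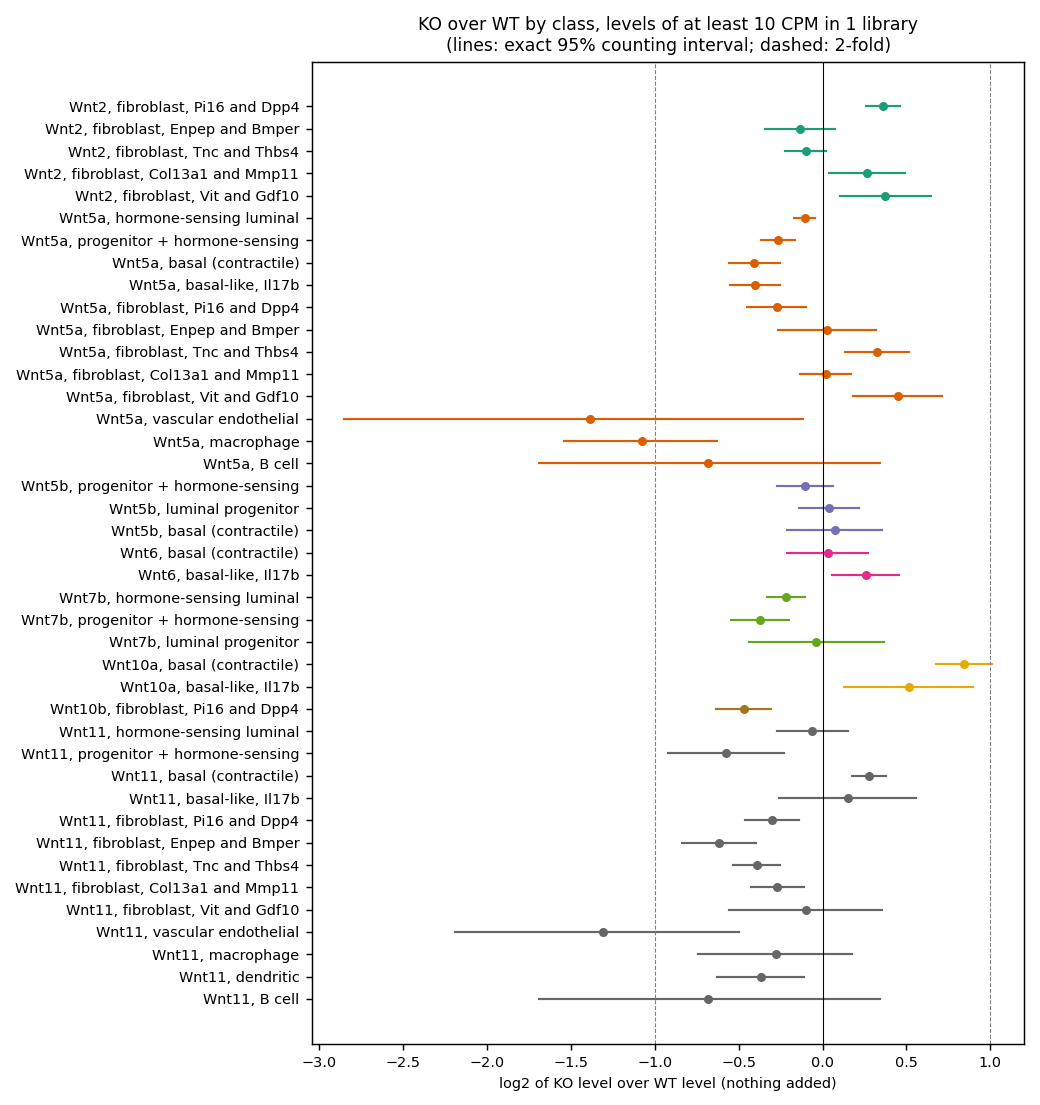
Log2 of the KO level over the WT level (nothing added) for each pair of ligand and class that reached 10 CPM in 1 library, with the exact 95% counting interval as a line and 2-fold as dashed lines. A pair can be shown through the library in which it is high. Pairs past 2-fold lie in vascular endothelial cells and macrophages, and Wnt10a in basal cells lies just inside 2-fold.

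The 6 pairs lower in KO by 2-fold or more were outside the genes' main sources. They were Wnt5a in dendritic cells (-1.87), luminal progenitor cells (-1.67), smooth muscle (-1.33), vascular endothelial cells (-1.19) and macrophages (-1.03), and Wnt11 in vascular endothelial cells (-1.22). Of the alternatives that gave a value, Wnt5a stayed past 2-fold in 13 of 15 in dendritic cells, 10 of 14 in luminal progenitor cells, 11 of 15 in smooth muscle, 12 of 15 in endothelial cells and 11 of 16 in macrophages (-0.94 with TMM factors), and Wnt11 in 7 of 15 in endothelial cells. Wnt5a in dendritic cells rests on 9 UMIs in KO and 39 UMIs in WT. In luminal progenitor cells it rests on 10 UMIs in KO and 29 UMIs in WT. The top 5 dendritic cells held 66.7% of the class's Wnt5a UMIs in KO and 74.4% in WT. After thinning, 0.244% of KO and 0.338% of WT dendritic cells had a Wnt5a UMI. In luminal progenitor cells the thinned shares were 0% in KO and 0.775% in WT. Wnt5a in smooth muscle rests on 3 UMIs in KO and 31 UMIs in WT, and its interval of -3.95 to 0.08 includes 0. Of all genes measured there, 4.84% were lower by 2-fold in dendritic cells, 2.44% in luminal progenitor cells, 6.29% in smooth muscle, 5.95% in vascular endothelial cells and 4.96% in macrophages. In endothelial cells, Wnt5a had 7 UMIs (3.88 CPM) in KO and 23 UMIs (10.1 CPM) in WT. Fibroblast markers were lower in KO in 4 of these 5 classes. All 7 had UMIs in each of them, and their summed level was 646 CPM in KO and 3302 CPM in WT endothelial cells, 1217 CPM in KO and 4823 CPM in WT dendritic cells, 1104 CPM in KO and 2716 CPM in WT smooth muscle, and 272 CPM in KO and 849 CPM in WT luminal progenitor cells. In macrophages the fibroblast markers stood at 1430.5 CPM in KO and 1433 CPM in WT, while the 7 basal markers stood at 1634 CPM in KO and 3149 CPM in WT. The basal markers were lower in KO in the other classes too. They summed to 292 CPM in KO and 481 CPM in WT dendritic cells, and 594 CPM in KO and 932 CPM in WT endothelial cells. In luminal progenitor cells they stood at 193 CPM in KO and 488 CPM in WT. In smooth muscle the basal markers summed to 8947 CPM in KO and 10463 CPM in WT. That sum includes Acta2 and Cnn1, which are also markers of smooth muscle itself, so it is not a measure of basal RNA there. The 7 markers of hormone-sensing cells, the leading class of Wnt5a, had no common direction over the 5 classes. They summed to 185 CPM in KO and 182 CPM in WT dendritic cells, 749 CPM in KO and 521 CPM in WT macrophages, 687 CPM in KO and 811 CPM in WT endothelial cells, 92.2 CPM in KO and 155.0 CPM in WT smooth muscle, and 216 CPM in KO and 290.0 CPM in WT luminal progenitor cells. In T and natural killer cells Col1a1, a collagen of fibroblasts, was at 159 CPM in KO and 394 CPM in WT. Genes of epithelial classes were lower in KO there too. Prlr, of hormone-sensing cells, was at 5.07 CPM in KO and 28.2 CPM in WT, and the basal Krt14 at 6.65 CPM in KO and 51.5 CPM in WT. The luminal Krt18 was at 36.9 CPM in KO and 126 CPM in WT, and Csn3, of luminal progenitor cells, at 4.90 CPM in KO and 20.2 CPM in WT. The part of free RNA in these ratios was not tested.

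The 1 pair higher in KO was Wnt2 in macrophages (1.35), on 15 UMIs in KO and 5 UMIs in WT. The KO UMIs lay in 6 cells, with 53.3% of them in 1 cell, and the WT UMIs in 3 cells, with 60.0% in 1 cell. Of all genes, 1.54% were higher by 2-fold there. The value ranged from 0.07 to 1.86 over 15 alternatives.

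**Figure D5:**
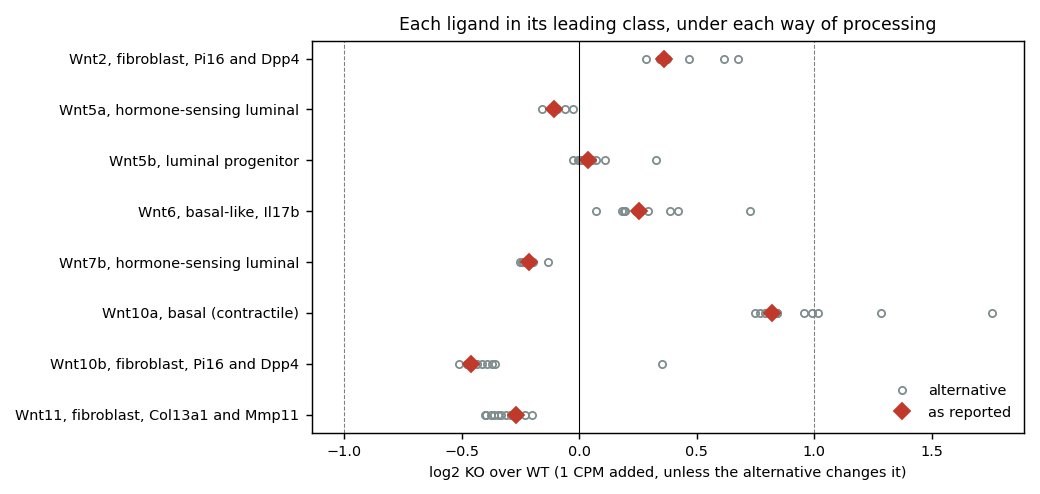
Log2 of KO over WT for each ligand in its leading class, as reported (red diamonds) and under each alternative processing (open circles), with 2-fold as dashed lines. Wnt10a passes 2-fold in 3 alternatives, and Wnt10b changes sign when each library is clustered alone.

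The receptors and other genes of the pathway were laid over the same classes. Of 40 listed genes (11 other Wnt ligands, 2 genes of ligand secretion, 16 receptors and 11 secreted inhibitors), Wls, the carrier that takes Wnts to the cell surface, was highest in Col13a1 fibroblasts, at 236.4 CPM in KO and 299.1 CPM in WT. Ror2, the receptor of Wnt5a, was highest in the same subset, at 77.9 CPM in KO and 90.3 CPM in WT. Fzd7 led in basal cells, at 99.5 CPM in KO and 121.0 CPM in WT, and Fzd10 in hormone-sensing cells, at 62.1 CPM in KO and 80.4 CPM in WT.

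The inhibitors Sfrp2 and Sfrp4, which bind Wnts outside the cell, led in the Pi16 fibroblasts that also led in Wnt2 and Wnt10b. Sfrp2 had 1067 CPM in KO and 1233 CPM in WT there, and Sfrp4 580.4 CPM in KO and 546 CPM in WT. Of the remaining ligands, Wnt4 led in hormone-sensing cells like Wnt5a and Wnt7b, at 213.9 CPM in KO and 171.1 CPM in WT, and Wnt9a in Col13a1 fibroblasts, at 28.1 CPM in KO and 34.6 CPM in WT. Wnt3a had 0 UMIs in both libraries, which allows up to 3 UMIs in each.

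In each class that leads in a ligand, at most 2 of these genes were past 2-fold between KO and WT. Where any were, their share lay above that of all genes, though on only 1 or 2 genes per class. In basal cells 0 of 26 measured pathway genes were past 2-fold (1.31% of all genes there), in Pi16 fibroblasts 0 of 27 (1.76%), and in Col13a1 fibroblasts 1 of 26, Wif1, which was lower in KO (0.893% of all genes lower). In hormone-sensing cells 2 of 25 were lower, Sfrp2 and Sfrp4 (1.6%). Sfrp2 had 21 UMIs in KO and 95 UMIs in WT there, and Sfrp4 17 UMIs in KO and 80 UMIs in WT. In Il17b basal-like cells 2 of 24 were lower, Fzd9 and Sfrp4 (2.47%), and in luminal progenitor cells 1 of 18, Wnt4 (2.44%). Vascular endothelial cells had 7 of 20 lower in KO and 0 higher, against 5.95% of all genes lower, with the fibroblast markers at the levels given above.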

How the data were processed

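Each library was deposited as raw UMI counts per gene and barcode; per the file headers the tables were made with Cell Ranger 5.0.1, and the submitters' processing notes name Seurat 3.2.0 and the build mm10. Whether counting used strand is not given in the sources used here, so reads of Wnt5a, Wnt5b, Wnt6 and Wnt7b cannot be told apart from those of genes overlapping them on the other strand. Of the gene identifiers, 99.6% were found in GENCODE M21.

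Barcodes with at least 500 genes, 1000 UMIs and at most 10% mitochondrial UMIs were kept (10907 of 11442 KO, 10984 of 12291 WT), and doublets called by Scrublet (scanpy 1.11.5) were removed (435 KO, 461 WT). Depth was 139757797 UMIs in KO and 160026788 in WT. On 2000 variable genes without the 8 ligands, 30 components and 20 neighbours, Leiden clustering (resolution 1, both libraries together) gave 37 clusters, of which 10 stayed unnamed. A name needed, among other limits, at least 3 markers and at least 50% of the markers of the class. The rules for the cluster with both luminal marker sets and for the Schwann and mesothelial cluster were set after the clusters were seen. Class sums were scaled to CPM. With 1 library per genotype there was no test, and a difference counted at 2-fold. The ratio script was tested on simulated data. All 8 ligands are named; the gene most like each was found by correlation. The 8 genes, the marker lists and the pathway list were chosen with earlier results of these data known. Alternatives are given in the closing section; keeping the ligands among the clustering genes was added after the data were seen.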

Additional observations from a re-analysis of the deposited data

Results flagged for a closer look

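Wnt5a had a log2 ratio of KO over WT of 0.44 in Vit fibroblasts and -1.19 in vascular endothelial cells. Wnt11 had one of 0.27 in basal cells and -1.22 in vascular endothelial cells. These pairs of values stand out because their signs are opposite and their counting intervals, which cover counting error only, do not include 0. The differences between classes were not tested, since each genotype has 1 library. The endothelial values rest on 7 Wnt5a UMIs in KO and 23 in WT, and on 17 Wnt11 UMIs in KO and 53 in WT, and the fibroblast markers in those cells stood at 646 CPM in KO and 3302 CPM in WT.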

How the results depend on the processing

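The leading class was kept by 7 or 8 of the 8 ligands in each of the 15 alternatives that could change it. It passed to basal cells for Wnt11 in 5 of them, to Il17b basal-like cells for Wnt10a with all deposited barcodes, and to Schwann-like cells for Wnt6 with called doublets kept. The number of ligands past 2-fold in their leading class, 0 as reported, was 1 with Leiden resolution 2 and 1 after thinning to 2000 UMIs, Wnt10a in basal cells each time. The number of pairs of ligand and class past 2-fold was 7 of 62 measured as reported (3.89% of pairs over all genes). It was 3 of 76 with called doublets kept (3.45%), 11 of 64 with each library clustered alone (6.02%), 14 of 100 with cells classed one by one (6.75%), 1 of 62 with a pseudocount of 5 CPM (1.56%), 1 of 33 after thinning (5.53%), 16 of 136 with no minimum of UMIs (3.49%) and 1 of 37 with at least 100 UMIs (1.86%). The cause of these shifts was not tested. Thinning left out 370 KO and 788 WT cells. No paired analysis was possible because each genotype has 1 library. Leaving out a replicate was not possible for the same reason. Counts below 20 UMIs in at least 1 library limit the endothelial, smooth muscle and lymphocyte values. The same holds for Wnt5a in dendritic cells (9 UMIs in KO) and in luminal progenitor cells (10 UMIs in KO).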
